A study of Homo sapiens with 6 samples.

Results

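The replacement core histone variants are the genes for core histones that can be placed into chromatin outside DNA replication. The 9 genes H3-3A, H3-3B, H2AZ1, H2AZ2, H2AX, H2AJ, MACROH2A1, MACROH2A2 and CENPA were taken by symbol from count tables of 60708 gene identifiers, and each matched a single identifier. They were read in U2OS cells, an established human osteosarcoma line used here as wild type. In the DMSO group, 3 libraries come from cells given the solvent DMSO, and in the PARGi group, 3 come from cells given 25 µM PDD00017273, which inhibits poly(ADP-ribose) glycohydrolase (PARG), the main enzyme that degrades poly(ADP-ribose) chains. Both lasted 4 days, and the series' design text calls the libraries biological triplicates; no label says whether they came from separate cultures, so p-values measure the spread between these libraries. The series as a whole concerns PARG and the turnover of the TARG1 protein.

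Core histones wrap DNA into nucleosomes. Most of the histone supply is made in S phase from clustered genes whose messages end in a stem loop, while replacement variants are encoded by genes outside those clusters, several of them expressed through the cell cycle, and many are placed into chromatin by dedicated chaperones. H3.3 marks active genes, telomeres and regulatory elements, H2A.Z lies beside transcription starts, H2A.X is phosphorylated around DNA breaks, macroH2A carries a large macrodomain and is linked to silent chromatin, and CENP-A defines the centromere. Poly(ADP-ribose) is made largely at DNA breaks, where H2A.X acts too, and a splice form of macroH2A1 binds ADP-ribose through its macrodomain.

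The 6 libraries held 60286931 to 80605145 counts each, with TMM scaling factors from 0.9953 to 1.007. Levels are given as CPM, counts scaled to the library size after TMM. All 7 mesenchymal and osteoblast markers looked at were measured, among them COL1A1 at 4128 to 4659 CPM and RUNX2 at 68.3 to 84.5 CPM, while 8 markers of epithelial, blood, endothelial and liver cells summed to 6.56 to 7.61 CPM per library. Of the 7, 3 were lower in PARGi and 1 was higher by the test used below, beside 11% lower and 13.2% higher of all genes tested. RUNX2 went from 83.3 ± 1.14 CPM to 69 ± 0.606 CPM (SD, n = 3 each). Also lower were SPARC, from 1677 ± 17.1 to 1583 ± 10.9 CPM, and COL1A2, from 13 ± 1.38 to 7.41 ± 0.685 CPM (SD, n = 3 each). The change of COL1A2 was the largest of the 7 (log2 fold change -0.80, edgeR adjusted p = 1.6e-08). ALPL was higher, from 4.68 ± 0.208 to 5.52 ± 0.437 CPM (SD, n = 3 each). The 7 summed to 9905 to 10690 CPM under DMSO and 9990 to 10080 CPM under PARGi. Of the 8 others, CDH1 was higher and 3 had too few counts for the test. The part of these markers in the results on histone variants was not tested. Pairs of libraries of the same group differed by a chi-square of 2.28 to 6.1 per degree of freedom, so none repeated another within sampling noise.

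The stretches before the start sites of the 4 variants that passed the test below are shown first, to set the regulatory sequence of the genes that fell beside that of the gene that rose. They are from RefSeq on GRCh38.p14, each 150 bases long, 5′ to 3′ on the gene's own strand, and end at the last base before the start site that GENCODE 29 does not place in an exon. Capitals mark CCAAT boxes (CCAAT, or ATTGG on the other strand) and TATA boxes (TATAAA). H3-3A lies on the plus strand (chr1:226062528-226062677), H3-3B on the minus strand (chr17:75779781-75779930), H2AJ on the plus strand (chr12:14774233-14774382) and MACROH2A2 on the plus strand (chr10:70052646-70052795).
H3-3A: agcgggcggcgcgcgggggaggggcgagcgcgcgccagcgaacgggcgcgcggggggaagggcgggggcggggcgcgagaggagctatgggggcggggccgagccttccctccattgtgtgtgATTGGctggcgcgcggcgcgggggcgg
H3-3B: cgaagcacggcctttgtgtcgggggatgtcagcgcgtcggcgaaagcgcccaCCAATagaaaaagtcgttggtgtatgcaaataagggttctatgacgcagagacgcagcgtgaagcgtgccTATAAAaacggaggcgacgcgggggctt
H2AJ: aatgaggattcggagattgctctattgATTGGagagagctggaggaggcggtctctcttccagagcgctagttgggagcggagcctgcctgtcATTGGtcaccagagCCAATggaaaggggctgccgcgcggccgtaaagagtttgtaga
MACROH2A2: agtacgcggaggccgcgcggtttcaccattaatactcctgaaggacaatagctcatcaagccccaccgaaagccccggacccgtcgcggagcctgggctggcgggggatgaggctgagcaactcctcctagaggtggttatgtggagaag

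The stretches of the 3 genes that fell hold 1 CCAAT box in H3-3A, 1 in H3-3B and 3 in H2AJ, and that of MACROH2A2 holds none. H3-3B alone of these 4 has a TATA box in it. Motifs were counted on both strands in the whole 250 bases before the start for all 9 genes, exon bases included; where several start sites were listed, the one with most GENCODE starts within 50 bases was used. A CCAAT box was found before 7 of the 9 variants, against 32% of 35116 RefSeq promoters of the same length, and the exceptions were MACROH2A1 and MACROH2A2. For MACROH2A1 all 250 bases of the window lie in annotated exons. TATAAA was found before 3 (H3-3B, H2AZ1 and H2AX; 10.7% of all promoters), GGGCGG, the GC box, before 5 (42.6%), and TTTGAA, a cell cycle homology element, before 2, H2AX and CENPA (13.3%). No match overlapped one of another motif. These matches describe the letters of the window and were not tested for any effect on the counts.

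The comparison asked whether messages of replacement variants differed between inhibitor and solvent. Both genes for H3.3 and H2AJ were lower in PARGi, with changes of -10.6% for H3-3A, -7.30% for H3-3B and -12.1% for H2AJ, and MACROH2A2 was higher by 6.59%. H2AZ1, H2AZ2, H2AX, MACROH2A1 and CENPA did not pass the threshold. In all, 4 of 9 variants had an adjusted p under 0.05 by edgeR's quasi-likelihood test (Benjamini-Hochberg over the 20409 genes tested), against 24.3% of all tested genes. By direction, 3 were lower, against a background of 11%, and 1 was higher, against 13.2%. Of all genes called, 54.5% were higher, and 40.5% with upper-quartile scaling, which left 0 variants higher and 3 lower. With so few genes these counts describe the list and are not a test of it. The median log2 fold change of the 9 genes was 0.020, beside -0.0070 for all genes tested. In 6 of the 9, the 3 libraries of a group all lay above those of the other, which holds for 38% of tested genes.

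**Figure D1:**
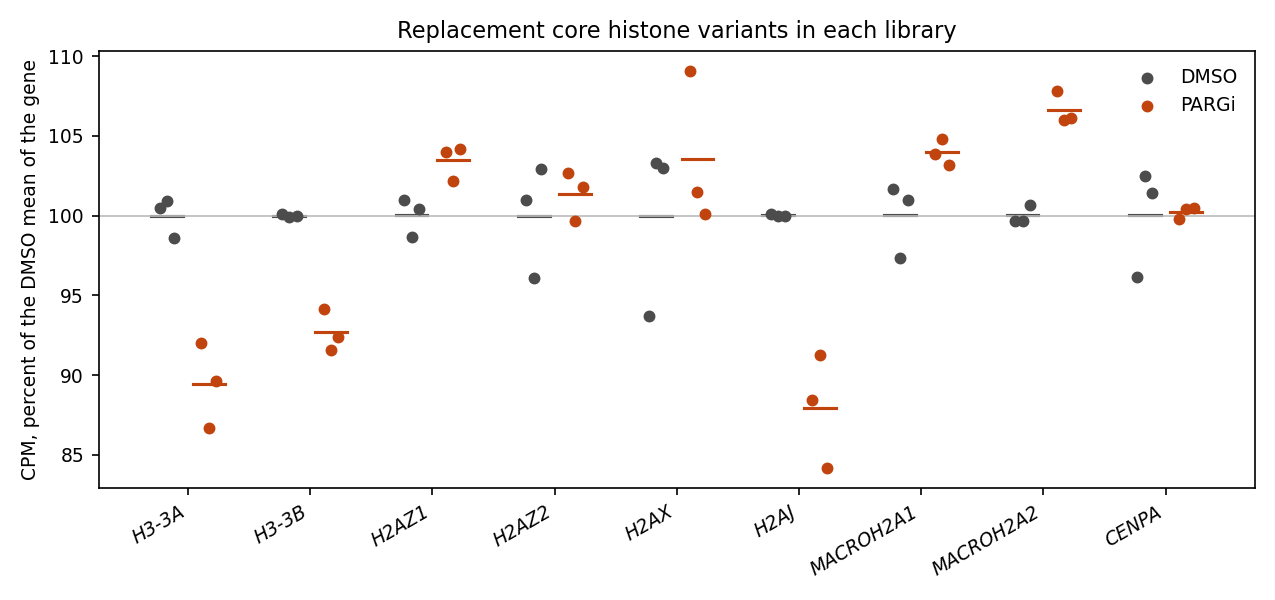
Level of each variant in every library, as a percentage of the DMSO mean CPM of that gene (points: the 3 DMSO and 3 PARGi libraries; short lines: group means; the axis does not start at 0). H3-3A, H3-3B and H2AJ lie at or below 94.1% of the DMSO mean in every PARGi library, the 3 PARGi values of MACROH2A2 lie at 106% or above, and those of CENPA lie within the range of DMSO.

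H3-3A and H3-3B encode the same H3.3 protein from different genes. H3-3A (ENSG00000163041, chromosome 1, plus strand, 226061851 to 226072001 in GENCODE 29, hg38) was at 234, 235 and 229 CPM in DMSO replicates 1 to 3 and at 214, 201 and 208 CPM in PARGi replicates 1 to 3. The lowest DMSO library lay above the highest PARGi library. Its log2 fold change came to -0.16 (SE 0.026, 95% confidence interval -0.22 to -0.11, edgeR adjusted p = 5.92e-05). This was the smallest p of the 9, and 36.4% of tested genes changed more in absolute terms.

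H3-3B (ENSG00000132475, chromosome 17, minus strand, 75776434 to 75785893) is the more abundant of the pair. Its levels were 681, 680 and 680 CPM in DMSO and 640, 623 and 629 CPM in PARGi. The groups did not overlap. The SD of the DMSO libraries, 0.0774% of the mean, was smaller than counting error, which was at least 0.444%, and the edgeR test draws on a spread shared across genes. The log2 fold change was -0.11 (SE 0.023, 95% confidence interval -0.16 to -0.062, edgeR adjusted p = 0.000953). Summed over both genes, H3.3 messages went from 913 ± 2.85 CPM to 839 ± 15 CPM (SD, n = 3 each), a change of -8.13% (two-sided exact permutation test, p = 0.1, the lowest value possible with 3 against 3).

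Some reads of the H3.3 genes can match other genes, and how the counting treated them is not given in the sources used here. Of the 75-base stretches of H3-3A transcripts, 11% also occur in a transcript of another gene, most of all in the processed pseudogene H3P6. H3P6 was counted at 55.3 ± 1.72 CPM under DMSO and 50.8 ± 0.965 CPM under PARGi (SD, n = 3 each) and was lower as well (log2 fold change of -0.12, SE 0.032, edgeR adjusted p = 0.00611). With both counted together, an alternative chosen after seeing the data, the log2 fold change of H3-3A was -0.15 (edgeR adjusted p = 9.08e-05). For H3-3B the share of such stretches was 3.71%, and they are shared mainly with UNK, which overlaps 214 exonic bases of H3-3B on the opposite strand. UNK was at 47.3 ± 0.362 CPM under DMSO and 42.3 ± 0.759 CPM under PARGi (SD, n = 3 each; log2 fold change of -0.16, SE 0.031, edgeR adjusted p = 0.00042). The part of these genes in the values of H3-3A and H3-3B was not tested beyond that sum.

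H2AJ (ENSG00000246705, chromosome 12, plus strand, 14774383 to 14778002) encodes H2A.J, a variant known for accumulating in senescent cells. It was the least abundant of the 9, with 1162 to 1630 counts per library, and none of its 75-base stretches occurs in another gene. Its levels were 21.9 CPM in each DMSO library and 19.4, 20 and 18.4 CPM in PARGi, so the groups did not overlap. The log2 fold change was -0.19 (SE 0.043, 95% confidence interval -0.27 to -0.098, edgeR adjusted p = 0.00224), the largest absolute change among the 9 and the least precise. Here too the SD of DMSO, 0.0622% of the mean, was far under the counting error of 2.48% or more.

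H2A.Z is encoded by H2AZ1 and H2AZ2, whose proteins are nearly identical. H2AZ1 (ENSG00000164032, chromosome 4, minus strand, 99948086 to 99950388) was the most abundant variant, at 742, 725 and 738 CPM in DMSO and 765, 751 and 766 CPM in PARGi. The PARGi libraries lay above the DMSO libraries, but the log2 fold change of 0.049 did not pass (SE 0.023, 95% confidence interval 0.0017 to 0.097, edgeR adjusted p = 0.128). DESeq2 gave an adjusted p of 0.0417 for it, the only alternative to put it past the threshold. Of its 75-base stretches, 6.3% occur in other genes, mainly the antisense gene H2AZ1-DT, which was at 0.994 CPM in both groups. H2AZ2 (ENSG00000105968, chromosome 7, minus strand, 44826791 to 44848083) was at 368, 351 and 375 CPM in DMSO and 375, 363 and 371 CPM in PARGi. These ranges overlapped, and the log2 fold change was 0.020 (SE 0.027, 95% confidence interval -0.035 to 0.075, edgeR adjusted p = 0.652), with a sign that turned under upper-quartile scaling and without DMSO replicate 2. Summed, H2A.Z messages were at 1100 ± 20.8 CPM under DMSO and 1130 ± 13.7 CPM under PARGi (SD, n = 3 each; two-sided exact permutation test, p = 0.1, the smallest possible).

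H2AX (ENSG00000188486, chromosome 11, minus strand, 119093854 to 119095467) encodes H2A.X, the substrate of the damage kinases ATM, ATR and DNA-PK, and is known to give both stem-loop and polyadenylated messages. It was at 225, 248 and 247 CPM in DMSO and 262, 243 and 240 CPM in PARGi. DMSO replicate 1 was the lowest library and PARGi replicate 1 the highest, and the other libraries of both groups lay between them with overlap. The log2 fold change was 0.050 (SE 0.034, 95% confidence interval -0.021 to 0.12, edgeR adjusted p = 0.327), and the interval leaves room for a change from -1.46% to 8.75%. Its log2 fold change was 0.0034 without DMSO replicate 1 and 0.011 without PARGi replicate 1, and 0.064 to 0.075 without any one of the other libraries, and none of these passed. H2AX had the widest spread of the 9, with an SD of 5.45% of the mean in DMSO and 4.71% in PARGi.

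Both macroH2A genes had all PARGi libraries above all DMSO libraries, and 1 of them passed the test. MACROH2A1 (ENSG00000113648, chromosome 5, minus strand, 135333900 to 135399914) gives splice forms that do and do not bind ADP-ribose, which counts per gene cannot tell apart. Its levels were 193, 185 and 192 CPM in DMSO and 197, 199 and 196 CPM in PARGi, and the log2 fold change of 0.056 did not pass (SE 0.025, 95% confidence interval 0.0037 to 0.11, edgeR adjusted p = 0.114). Of its 75-base stretches 27% occur in other genes, mainly the antisense gene PITX1-AS1, which was at 0.734 ± 0.16 CPM under DMSO and 0.579 ± 0.133 CPM under PARGi (SD, n = 3 each). MACROH2A2 (ENSG00000099284, chromosome 10, plus strand, 70052796 to 70112280) encodes the second macroH2A protein, which lacks ADP-ribose binding. It was at 92.3, 92.3 and 93.2 CPM in DMSO and 99.8, 98.1 and 98.2 CPM in PARGi, and the groups did not overlap. The log2 fold change was 0.092 (SE 0.026, 95% confidence interval 0.039 to 0.15, edgeR adjusted p = 0.0105). The call of MACROH2A2 was lost with upper-quartile scaling (log2 fold change 0.068, edgeR adjusted p = 0.0669) and without PARGi replicate 1 (0.084, edgeR adjusted p = 0.0532). AIFM2, on the opposite strand and with 11 exonic bases in common, was also higher, from 54.4 ± 1.88 to 59 ± 1.09 CPM (SD, n = 3 each; log2 fold change of 0.12, SE 0.031, edgeR adjusted p = 0.00766), and its part in the count of MACROH2A2 was not tested. Summed, macroH2A messages were at 283 ± 4.67 CPM under DMSO and 296 ± 1.69 CPM under PARGi (SD, n = 3 each; two-sided exact permutation test, p = 0.1, the smallest possible).

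CENPA (ENSG00000115163, chromosome 2, plus strand, 26764289 to 26801067) encodes the centromeric H3 variant, whose message normally peaks in G2. It was at 58.2, 62 and 61.4 CPM in DMSO and 60.4, 60.8 and 60.9 CPM in PARGi, and all PARGi libraries lay inside the DMSO range. The log2 fold change was 0.0032 (SE 0.030, 95% confidence interval -0.059 to 0.066, edgeR adjusted p = 0.957), with a sign that turned under upper-quartile scaling, with protein-coding genes alone and without DMSO replicate 1. The interval corresponds to -4.02% to 4.66%, and 98.2% of tested genes changed more in absolute terms. CENPA overlaps SLC35F6 on the same strand over 138 exonic bases, and SLC35F6 was at 39.3 ± 1.63 CPM under DMSO and 39.5 ± 0.795 CPM under PARGi (SD, n = 3 each).

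**Figure D2:**
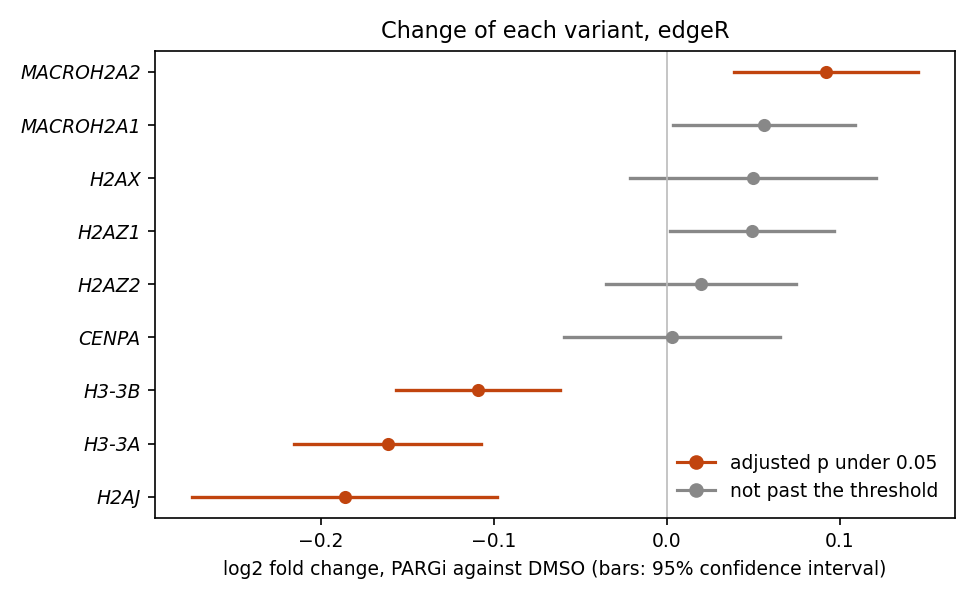
Log2 fold change of each variant, PARGi against DMSO, with its 95% confidence interval (edgeR; not adjusted for the number of genes), coloured by adjusted p. The intervals of H2AJ, H3-3A and H3-3B lie wholly below 0 and those of MACROH2A2, H2AZ1 and MACROH2A1 above 0, although H2AZ1 and MACROH2A1 did not pass after adjustment, while the interval of CENPA is centred close to 0.

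Levels of different genes were compared per kilobase of annotated exon (RPKM from TMM-scaled counts). In DMSO the order ran from H2AZ1 at 319 ± 3.82 RPKM through H2AX at 149 ± 8.09, H3-3B at 111 ± 0.0858, H2AZ2 at 76.8 ± 2.68, H3-3A at 73.9 ± 0.893, MACROH2A2 at 46.8 ± 0.266, CENPA at 30.5 ± 1.03 and MACROH2A1 at 10.7 ± 0.25 to H2AJ at 6.53 ± 0.00406 RPKM (SD, n = 3 each). The ranges of neighbours in this order did not overlap, except those of H2AZ2 and H3-3A. In PARGi the order of means was the same, and H2AZ2 (76.5 to 78.9 RPKM) and H3-3A (64 to 68 RPKM) no longer overlapped. H2AZ1 lay above 99.7% of tested genes in RPKM and H2AJ above 66.1%. The union of annotated exons reaches 17730 bases for MACROH2A1 and 6134 for H3-3B, taking in the exons of all isoforms. The RPKM of a gene depends on that length. Exon lengths came from GENCODE 29, which held 58396 of the 60708 counted identifiers, and may differ from the gene models used for counting.

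**Figure D3:**
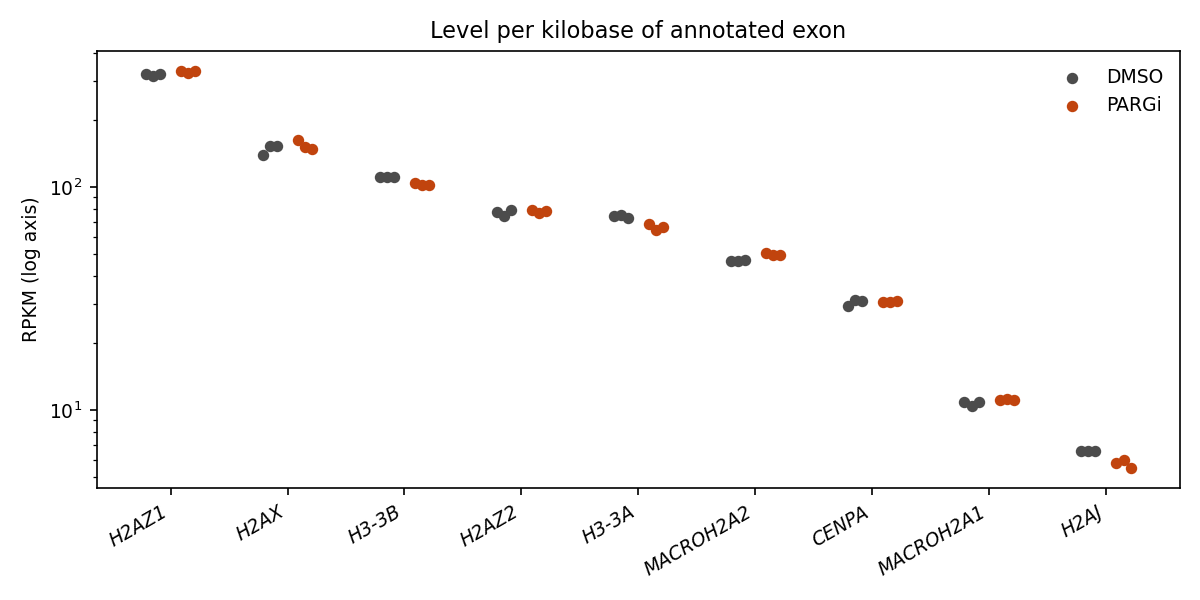
Level of each variant per kilobase of annotated exon in RPKM (log axis), for the 3 DMSO and 3 PARGi libraries, ordered by the DMSO mean. H2AZ1 stands at the top, between 315 and 333 RPKM, and H2AJ at the bottom, between 5.49 and 6.53 RPKM, in both groups.

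The ratio of paralogs in the same library does not depend on scaling. Its level depends on the exon lengths used, and its difference between groups does not. In CPM, without division by length, MACROH2A1 was the more abundant of the macroH2A pair. The log2 ratio of H3-3A to H3-3B in RPKM was -0.58, -0.57 and -0.61 in DMSO and -0.62, -0.67 and -0.63 in PARGi, lower in each PARGi library than in any DMSO library, with a difference of -0.052 in the means (two-sided exact permutation test, p = 0.1, and 0.3 adjusted over the 3 ratios; 0.1 is the smallest p possible). H2AZ1 was 4.16-fold above H2AZ2 in DMSO and 4.24-fold in PARGi, and the log2 ratio differed by 0.029 (exact permutation test, p = 0.4, adjusted 0.4). That difference was 0.011 without DMSO replicate 3 and 0.047 without DMSO replicate 2. For MACROH2A1 to MACROH2A2 the log2 ratio was -2.13 ± 0.0316 under DMSO and -2.16 ± 0.0193 under PARGi (SD, n = 3 each; exact permutation test, p = 0.2, adjusted 0.3). The difference of -0.036 was -0.022 without DMSO replicate 1 and -0.053 without DMSO replicate 2. None of the 3 differences passed, and 3 against 3 could not have passed.

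The 9 variants summed to 2617 ± 19.4 CPM under DMSO and 2594 ± 36.3 CPM under PARGi (SD, n = 3 each; two-sided exact permutation test, p = 0.4). Replication-dependent genes gave few counts beside them: 13 H3 genes summed to 3.83 to 4.25 CPM in DMSO and 3.08 to 3.3 CPM in PARGi, and 15 H2A genes to 37.1 to 37.5 CPM in DMSO and 27.6 to 28.6 CPM in PARGi. Of 15 H3 genes in the count tables, H3-3A and H3-3B among them, the 13 with an annotated exon length entered the shares below, in raw counts too. In reads per kilobase, H3-3A and H3-3B made up 98.3% ± 0.115 of the counted H3 messages under DMSO and 98.5% ± 0.178 under PARGi (SD, n = 3 each; exact permutation test, p = 0.3). The difference of 0.19 percentage points was 0.087 without PARGi replicate 1, and 0.054 in raw counts (exact permutation test, p = 0.1, the smallest possible). Of 23 H2A genes listed, the 6 variants among them, 21 matched a single identifier in the count tables. The others are left out of the H2A sum above and of the H2A share. The 6 H2A variants made up 95.4% ± 0.131 under DMSO and 96.6% ± 0.131 under PARGi of the counted messages of those 21 genes (SD, n = 3 each). All PARGi libraries lay above DMSO (exact permutation test, p = 0.1, the smallest possible). That difference was 0.581 percentage points in raw counts. Of the replication-dependent genes, 5 for H2A and 4 for H3 had enough counts for the test. In PARGi, 2 of the 5 and 1 of the 4 were lower and 0 were higher. The background was 11% lower and 13.2% higher of all genes tested. H2AC6, 1 of the lower H2A genes, went from 22.2 ± 0.481 to 13.7 ± 0.366 CPM (SD, n = 3 each, log2 fold change -0.70, edgeR adjusted p = 2.83e-11). This gene was picked with its values in view. Reads of clustered histone genes can match several near-identical copies, and 7 of these 28 genes had no count in any library. How fully the libraries captured messages that end in a stem loop was not tested. The shares therefore describe the counted messages and not the histone supply of the cells.

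Genes that deposit, remove or read the variants were taken from 5 lists. Of the 55 such genes, all tested, 5 were higher and 8 lower, 23.6% in all beside the 24.3% of all genes. The count fell to 8 without PARGi replicate 1 and to 8 without PARGi replicate 2. Of the 8 genes for H3.3 deposition, ATRX alone passed: it was at 303, 300 and 285 CPM in DMSO and 268, 273 and 273 CPM in PARGi, and fell by 0.12 on the log2 scale (SE 0.026, edgeR adjusted p = 0.00102). ATRX works with DAXX to place H3.3 at telomeres and repeats, and U2OS cells are known to lack full-length ATRX protein, which counts per gene cannot show. DAXX (77.1 ± 1.88 to 78.4 ± 0.949 CPM, SD, n = 3 each, edgeR adjusted p = 0.569) and HIRA, the chaperone for H3.3 at genes (14.2 ± 0.582 to 14.4 ± 0.618 CPM, edgeR adjusted p = 0.89), did not pass. The median log2 fold change of this list was 0.00062.

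For H2A.Z, 4 of 13 genes passed, 1 higher and 3 lower, at a median of -0.038, beside 24.3% of all genes tested. KAT5, the acetyltransferase of the TIP60-EP400 complex, fell by 0.13 on the log2 scale (55.3 ± 0.281 to 50.5 ± 1.13 CPM, SD, n = 3 each, edgeR adjusted p = 0.0021). INO80, a remodelling ATPase (log2 fold change -0.11, edgeR adjusted p = 0.0181), and ACTL6A, an actin-related subunit (-0.081, edgeR adjusted p = 0.0249), were lower, and ACTR6, a subunit of the SRCAP complex (0.13, edgeR adjusted p = 0.0305), was higher. The calls of INO80, ACTL6A and ACTR6 were each lost in at least 5 of 15 alternatives. SRCAP, which exchanges H2A.Z into nucleosomes, was at 7.11 ± 0.555 and 6.65 ± 0.144 CPM (SD, n = 3 each, edgeR adjusted p = 0.344), and ANP32E, which removes H2A.Z, at 229 ± 10.1 and 232 ± 0.487 CPM (SD, n = 3 each, edgeR adjusted p = 0.67).

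Around CENP-A, 5 of 13 genes passed, 3 higher and 2 lower, at a median of 0.033, beside 24.3% of all genes tested. CENPN, which reads the CENP-A nucleosome, rose from 133 ± 2.63 to 147 ± 2.7 CPM (SD, n = 3 each; log2 fold change of 0.15, SE 0.026, edgeR adjusted p = 0.000208), and MIS18A, part of the complex that licenses deposition, rose from 88.1 ± 3.04 to 96.4 ± 0.682 CPM (0.13, edgeR adjusted p = 0.00153). PLK1, a kinase that promotes deposition, fell by 0.094 on the log2 scale (edgeR adjusted p = 0.0142; lost without PARGi replicate 1 and without PARGi replicate 2). Also higher was CENPW (0.12, edgeR adjusted p = 0.0224), outside the rule for named genes. HJURP, the chaperone of CENP-A, did not pass, at 134 ± 3.66 CPM under DMSO and 138 ± 2.36 CPM under PARGi (SD, n = 3 each, edgeR adjusted p = 0.249). Of 20 G2/M genes, which share the timing of CENPA, 3 were higher and 4 lower, at a median of 0.013. Among all genes tested, 13.2% were higher and 11% lower. PLK1 is counted both here and around CENP-A.

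Of 13 genes that signal to or read H2A.X, 2 passed, at a median of 0.0029, beside 24.3% of all genes tested. RNF8, the ubiquitin ligase recruited to phosphorylated H2A.X through MDC1, rose from 58.3 ± 1.08 to 66.9 ± 0.983 CPM (SD, n = 3 each; log2 fold change of 0.20, SE 0.029, edgeR adjusted p = 1.25e-05), the smallest p of the partner genes. EYA1, a phosphatase of H2A.X, was at 4.96 ± 0.477 and 4.07 ± 0.327 CPM (SD, n = 3 each; log2 fold change -0.29, edgeR adjusted p = 0.0227) and lost its call in 6 of 15 alternatives. Of the 8 partners of macroH2A and ADP-ribose, QKI alone passed: this RNA-binding protein, known to favour the ADP-ribose-binding splice form of macroH2A1, fell from 276 ± 5.35 to 247 ± 3.12 CPM (SD, n = 3 each; log2 fold change of -0.16, SE 0.025, edgeR adjusted p = 3.76e-05). The median of that list was 0.020.

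**Figure D4:**
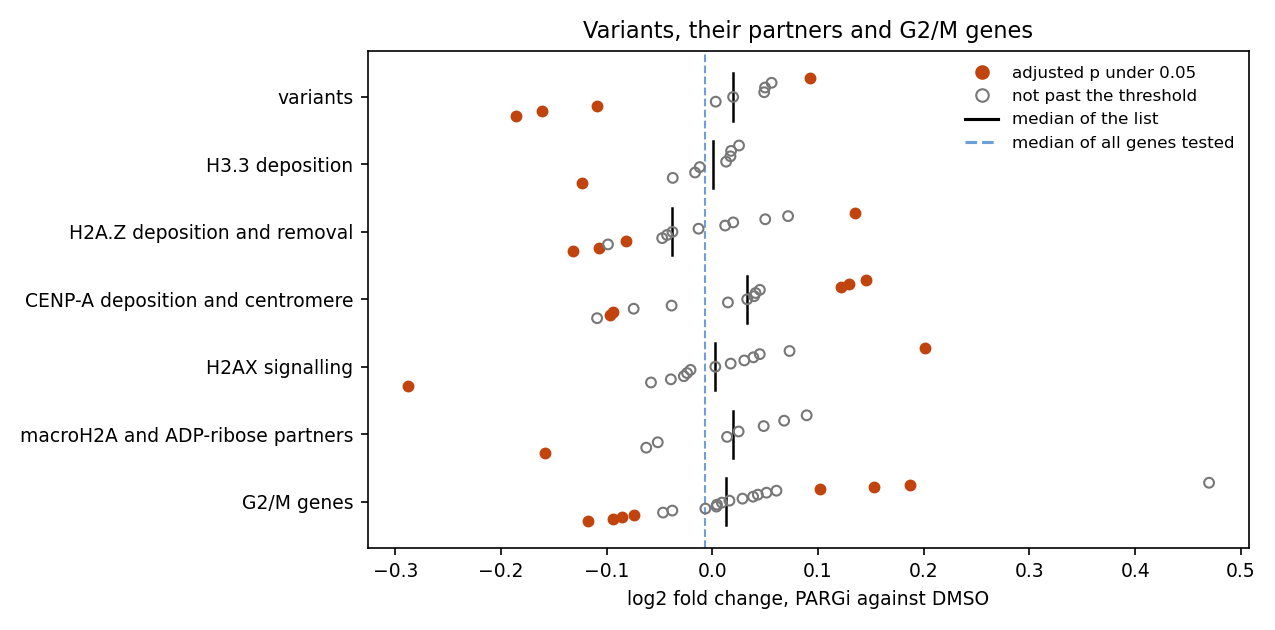
Log2 fold change, PARGi against DMSO, of the 9 variants, the 5 partner lists and G2/M genes (1 point per tested gene; filled: adjusted p under 0.05; black bars: median of the list; dashed line: median of all genes tested, -0.0070). The medians of the lists lie between -0.038 and 0.033, and every list shown has genes on both sides of 0.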

How the data were processed

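RNA sequencing was done on 3 DMSO and 3 PARGi libraries, grouped by sample title. Libraries came from a stranded TruSeq kit for total RNA, per the labels' protocols. The deposited values are raw counts per gene, 1 column per library. The submitters' processing notes name cutadapt 1.18, STAR 2.7.3a, SAMtools 1.9 and hg38. The annotation release, the strand setting and the handling of reads that match several genes are not given in the sources used here.

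Symbols were found for 60463 of 60708 identifiers, and GENCODE 29 held 58396 of them. Tests were run with edgeR 4.0.16 in R 4.3.3 (filterByExpr, TMM, glmQLFTest on treatment alone, 20409 genes, Benjamini-Hochberg, threshold 0.05). Standard errors were derived from the F statistic and the log2 fold change. At these depths counting error per variant and library was 0.403% to 2.93%, which covers counting only. For single values, libraries were permuted exactly, two-sided (scipy 1.17.1). The code was tested on simulated counts. Alternatives were DESeq2 1.42.0, limma-voom (limma 3.58.1), other scalings, filters and gene sets, a replicate block, a test against a 1.2-fold change and each library left out.

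The 9 variants and the lists were chosen with earlier results of these data known. Named were the 9 variants, ATRX, DAXX, HIRA, HJURP, SRCAP and ANP32E, up to 4 further called genes of each partner list with the smallest p, and neighbours or copies that bear on a variant. The values of 1 gene that this rule names are not reported here. Figures were drawn with matplotlib 3.10.9.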

Additional observations from a re-analysis of the deposited data

How the results depend on the processing

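H3-3A, H3-3B and H2AJ kept their direction and their call in each alternative that tested for any change (14 for H3-3B and H2AJ, 15 for H3-3A), with log2 fold changes from -0.19 to -0.14, from -0.13 to -0.10 and from -0.21 to -0.15. The sum of the variants differed by -43.3 to -7.42 CPM with a PARGi library left out. Against a change of 1.2-fold, 0 of the 9 variants and 0 of the 55 partner genes passed with edgeR, beside 4 and 13 in the test of any change, and 465 of 20409 genes passed at all. The count of variants ran from 3 (upper-quartile scaling) to 5 (DESeq2), and from 3 to 4 with a library left out. The count of partner genes ran from 8 to 14 with a library left out (fewer libraries per fit). Upper-quartile scaling moved all changes down by a median of 0.024 and left 40.5% of all calls higher, beside 54.5%. It gave log2 fold changes of -0.0047 for H2AZ2, -0.021 for CENPA, -0.011 for HIRA and -0.0047 for ANP32E, each not past the threshold, and a difference of -68.4 CPM in the sum of the variants, beside -23.9. With protein-coding genes alone, CENPA was at -0.012 and HIRA at -0.0021. With a library left out, H2AZ2 ran from -0.0075 to 0.040, CENPA from -0.026 to 0.021, HIRA from -0.017 to 0.045 and ANP32E from -0.016 to 0.039. In raw counts the share differed by 0.581 percentage points for the H2A variants and by 0.054 for H3.3. With a library left out, H2AX ran from 0.0034 to 0.075, the difference in the log2 ratio of H2AZ1 to H2AZ2 from 0.011 to 0.047, that of MACROH2A1 to MACROH2A2 from -0.053 to -0.022 and the difference in the share of H3.3 from 0.087 to 0.251 percentage points, in the same direction throughout.

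Both groups carry replicate numbers 1 to 3, but deviations of libraries with the same number did not correlate (-0.0031, 0.0016 and -0.025), so they were not treated as pairs. With the replicate number as a block, 4553 genes were called beside 4951, 4 of 9 variants and 13 of 55 partner genes among them. Depth limits H2AJ most, with at most 1630 counts in a library.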

Other observations

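Core histone variants restricted to testis or primates were close to the floor in these cells. Of 12 such genes, 4 had no count in any library, and the 12 together summed to 0.457 to 0.581 CPM in DMSO and 0.392 to 0.434 CPM in PARGi. Only H3Y1, with 65 counts over the 6 libraries, had enough for a test and did not pass (edgeR adjusted p = 0.052). H3-5, a copy of H3-3B, had 33 counts.

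Over 10142 other genes averaging 10 CPM or more, those whose log2 CPM over the 6 libraries was most like that of H3-3A were PDLIM7 (Pearson's r = 0.9964), FBXL20 (0.9952) and NUAK1 (0.9922). FBXL20 (log2 fold change -0.33) and NUAK1 (-0.20) were lower in PARGi, and PDLIM7 was at -0.056 and did not pass (edgeR adjusted p = 0.0888). The 6 points of each gene share libraries and fall into 2 groups, so these values only describe likeness.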
